A study of Mus musculus with 4 samples.

Results

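The MEIS, PBX, PREP and TGIF genes encode transcription factors of the TALE class, whose homeodomain carries a short loop extension. Of 56748 gene rows in the deposited count table, the 9 with the names Meis1, Meis2, Meis3, Pbx2, Pbx3, Pknox1, Pknox2, Tgif1 and Tgif2 are described here, and were chosen by their names. All 9 had counts in at least 1 library, and 8 of them had enough counts to be tested, as did 12802 genes in all. The exception was Tgif2.

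Reads of tailed messenger RNA were counted for each gene row, in 4 libraries of HT22, an immortalised mouse hippocampal neuronal cell line. There were 2 libraries of an HT22 line made to overexpress MEIS2 (here the MEIS2 line) and 2 of a control HT22 line. The labels give no vector, promoter, species of the introduced sequence, clone number, time or passage for either line, nor what the control line carries. Separate cultures are not stated for libraries of 1 line, so p-values rest on a spread between libraries that may be technical. A difference between the lines other than MEIS2 cannot be told apart from an effect of MEIS2.

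MEIS proteins bind DNA as partners of PBX proteins, and PBX proteins in turn bind DNA together with HOX proteins. The PREP proteins, encoded by Pknox1 and Pknox2, also pair with PBX and can take the place of MEIS. The TGIF proteins belong to the same class but act mainly as repressors, which bind SMAD proteins of the TGF-beta pathway and recruit histone deacetylases. In the mouse brain, Meis2 is known for its part in the development of striatal and olfactory bulb neurons.

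Total counts were 15705070 and 15014017 in MEIS2 replicates 1 and 2, and 16903967 and 16445575 in control replicates 1 and 2. Library spread was uneven. The scaled median absolute deviation of per-gene log2 differences was 0.777 between the MEIS2 libraries and 0.477 between the controls. It was 1.15 between MEIS2 replicate 2 and control replicate 1, and 0.338 between MEIS2 replicate 1 and control replicate 2. Of 10 markers of neurons, 6 had no count in any library, among them Rbfox3, Snap25 and Dcx, while Tubb3, Map2 and Slc17a7 passed the count filter. Of 4 hippocampal markers 3 had no count, and Zbtb20 had 11.97 and 60.98 CPM in the MEIS2 line, against 6.71 and 9.35 CPM in the control line, where CPM are counts relative to library size with TMM scaling. Of 7 fibroblast markers, 6 had counts and 5 were tested, with a summed level of 561.1 and 738.6 CPM in the MEIS2 line and 498.9 and 479.5 CPM in the control line. Lum had no count, and Dcn had at most 10 counts in a library. Of 4 smooth muscle markers, Acta2 was the only one tested, and the 4 summed to 22.02 and 16.73 CPM in the MEIS2 line, against 37.04 and 25.95 CPM in the control line. The 4 astrocyte, 4 oligodendrocyte and 4 microglia markers summed to at most 1.31 CPM per list in a library. The part of these differences between libraries in the results below was not tested, except where a value without a library is given.

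Meis2 was the 1 TALE gene that passed the test, and it was higher in the MEIS2 line. It had 5182 and 5571 counts in the MEIS2 libraries, against 245 and 319 counts in the control libraries. These were 331.7 and 331.8 CPM in the MEIS2 line, against 15.9 and 19.6 CPM in the control line. Both MEIS2 libraries lay far above both controls, and the MEIS2 libraries differed from each other less than the controls did. The fold change was 18.6 (95% interval 11.2 to 31.0), or 4.22 on the log2 scale (SE 0.34), and edgeR's quasi-likelihood test gave it an adjusted p of 6.43e-05. Meis2 held 0.033% and 0.0371% of all counts in the MEIS2 libraries, against 0.00145% and 0.00194% in the controls. The row does not tell introduced from endogenous transcripts. In RNA of whole cultures, more transcript per cell and more cells with the transcript cannot be told apart.

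In that test 1 of the 8 tested TALE genes was higher and 0 were lower, where 0.00781% of all tested genes were called higher. Meis2 is that 1 gene, so no other gene of the 12802 passed. At an unadjusted p under 0.05, 9.79% of all tested genes were higher and 0.414% were lower, and Meis2 was again the only TALE gene. DESeq2, which called 61 genes higher and 1 lower (0.593% and 0.00973% of those it adjusted), and limma-voom both called Meis2 and no other TALE gene. Once the trends over length and GC content were taken out of each library, the log2 fold change of Meis2 was 3.65 with an adjusted p of 0.0975 and its call was lost.

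The remaining 7 tested genes did not pass. Their log2 fold changes lay between -0.55 and 0.83, with a median of 0.20, against a median of 0.01 over all tested genes, and their adjusted p ran from 0.527 to 0.942 in edgeR's test. Counting Meis2, 6 of the 8 had a fitted log2 fold change above 0, as did 50.9% of all tested genes. The lines did not overlap for 7 of the 8 genes, with 5 above and 2 below in the MEIS2 line. Over all tested genes, both MEIS2 libraries lay above both controls for 22.6% and below them for 19.1%, or 41.6% in either direction. Without MEIS2 replicate 1 the median of the 7 was 0.00068, with 4 above 0. In both fits the median is the value of 1 gene, Tgif1. With all 4 libraries and the length trend removed, the median was -0.01, with 3 above 0. Corrected for length and GC, 2 of the 7 had a positive fold change and their median was -0.05.

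**Figure D1:**
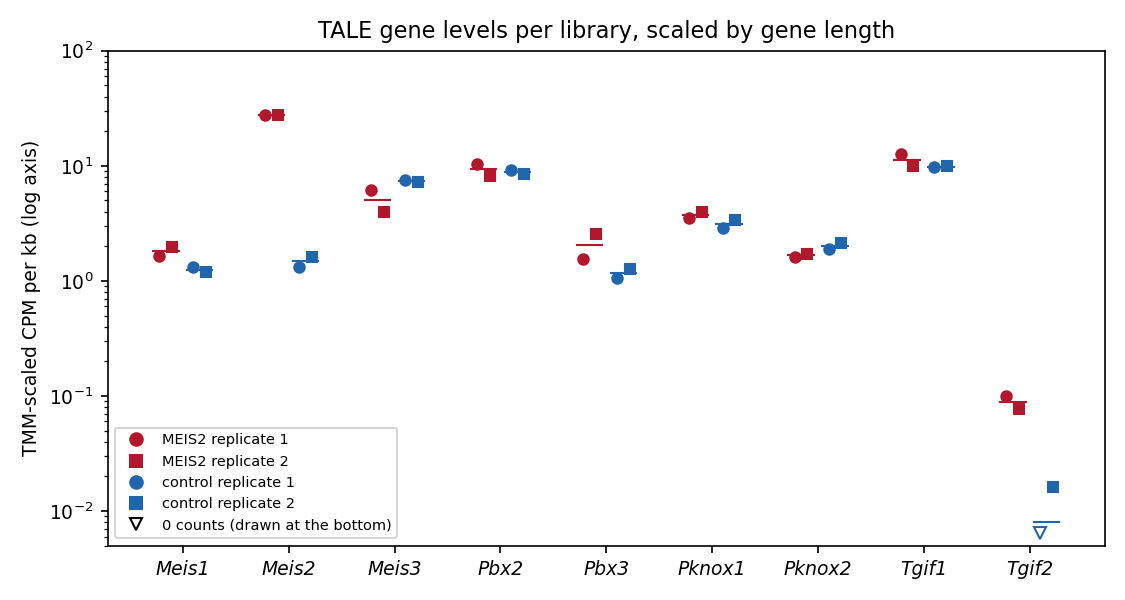
TMM-scaled CPM per kb of gene length (log axis) of the 9 TALE genes in each library; red points are MEIS2 libraries, blue points control libraries, circles replicate 1, squares replicate 2 and lines the mean of a line. Meis2 stands at 27.5 in both MEIS2 libraries and at 1.32 and 1.63 in the controls, while Pbx2, which overlaps between the lines, spans 8.23 to 10.4.

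The other MEIS genes differed in direction. Meis1 (ENSMUSG00000020160, minus strand of chromosome 11, 18829817 to 18968985 in the file's own positions), known for its part in blood stem cells and leukaemia, had 17.4 and 20.8 CPM in the MEIS2 line, against 13.8 and 12.6 CPM in the control line. Both MEIS2 libraries were higher, but the log2 fold change of 0.53 (SE 0.37, adjusted p 0.604 in edgeR's test) had a 95% interval from -0.26 to 1.33. Meis1 is among the longer genes, with 10532 bases, and its GC content of 42.4% is low. Corrected for both, it stood at -0.05.

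Meis3 (ENSMUSG00000041420, plus strand of chromosome 7, 15909015 to 15920429 in the file's own positions) is known from hindbrain patterning in frog embryos. It had 19.5 and 12.6 CPM in the MEIS2 line, against 24.1 and 22.8 CPM in the control line. Both MEIS2 libraries were lower, and they lay further apart than the controls, by 0.62 on the log2 scale against 0.08. The log2 fold change was -0.55 (SE 0.38, adjusted p 0.604 in edgeR's test), with a 95% interval from -1.36 to 0.26. It was -0.91 without MEIS2 replicate 1, -0.31 without MEIS2 replicate 2 and -0.28 when corrected for length and GC. Meis3 has 3173 bases, and its GC content of 59.4% exceeds that of 93.5% of the tested genes.

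Within the MEIS group, Meis2 had the highest level per length in the MEIS2 line and Meis3 had it in the control line. Per kb of the gene length in the file, Meis3 stood at 6.13 and 3.98 CPM in the MEIS2 line, against 7.59 and 7.19 CPM in the control line. Of the summed level of Meis1, Meis2 and Meis3 on that scale, Meis2 held 78.0% and 82.2% in the MEIS2 libraries, against 13.0% and 16.3% in the controls. Meis3 held 17.4% and 11.9% in the MEIS2 libraries, against 74.2% and 71.8% in the controls. The main MEIS transcript by this measure was thus Meis2 in the MEIS2 line and Meis3 in the control line, with no overlap between the lines for either share. The line was made to overexpress MEIS2, so these shares are no result separate from the level of Meis2. More Meis2 in the sum lowers the share of Meis3 by itself, and Meis3 did not pass edgeR's test (adjusted p 0.604). These shares rest on the file's lengths, 3173 bases for Meis3 against 10532 for Meis1 and 12043 for Meis2. As CPM not divided by length, Meis3 led in the controls by less, with 24.1 and 22.8 CPM against 15.9 and 19.6 CPM for Meis2. The difference between the lines in the share of Meis2 was then 57.8 percentage points, against 65.5 per length.

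The sum of the 3 genes was 34.4 ± 1.29 CPM per kb in the MEIS2 line and 10.1 ± 0.149 CPM per kb in the control line (SD, n = 2 each), a ratio of 3.4. Without Meis2, the sum of Meis1 and Meis3 was 6.87 ± 1.29 CPM per kb in the MEIS2 line and 8.64 ± 0.364 CPM per kb in the control line. In an exact two-sided permutation test the share of Meis2 and the sum of Meis1 and Meis3 both gave p = 0.333, the smallest that 2 libraries against 2 allow. As CPM not divided by length, the log2 ratio of the sum of Meis1 and Meis3 was -0.06 (p = 0.667 in the same exact test), and the lines overlapped. The labels do not state how long the introduced sequence is, and a level per kb in the MEIS2 line rests on the 12043 bases the file gives for the gene.

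**Figure D2:**
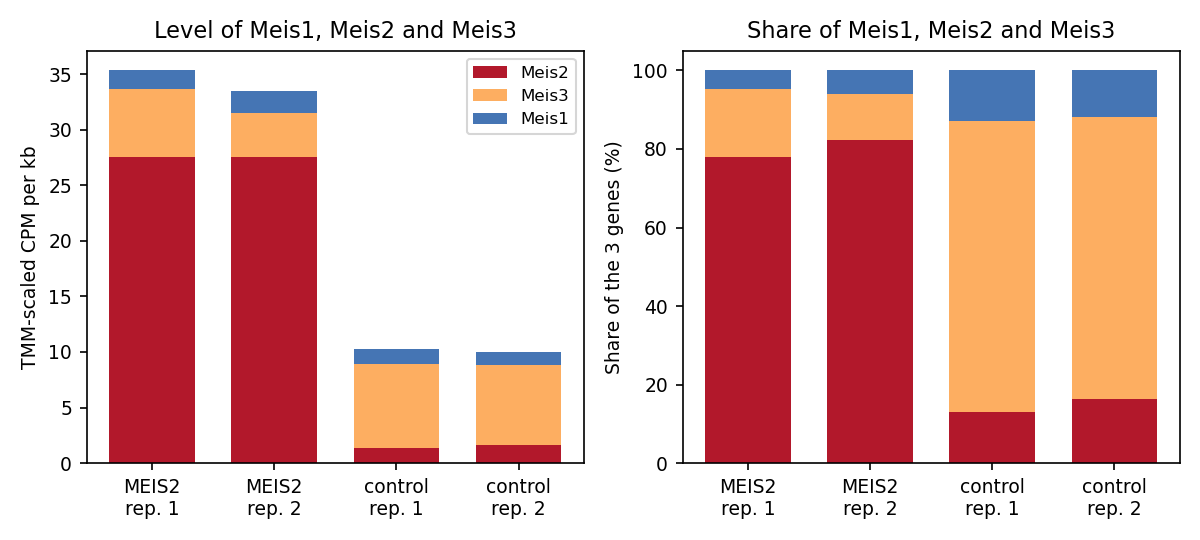
Stacked bars of Meis2, Meis3 and Meis1 in each library, as TMM-scaled CPM per kb (left) and as percent of the sum of the 3 genes (right). Meis2 fills 78.0% and 82.2% of the MEIS2 bars, and Meis3 fills 74.2% and 71.8% of the control bars.

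Promoter windows show where these genes start. RefSeq windows on GRCm38.p6, from 250 bases before to 50 bases after a start, were found for 6 of the 9 genes, namely Meis1, Meis2, Meis3, Pbx2, Tgif1 and Tgif2, with 10 windows in all. They were searched on both strands for TGACAG, the site known for MEIS and PREP proteins, for TGTCA, the core known for TGIF proteins, and for TGATTNAT, a site of PBX with HOX. On the opposite strand TGACAG holds TGTCA, so each match to the first is also a match to the second. The window of Meis2 is shown because it is that of the endogenous gene, and the window of Meis3 because Meis3 was the main MEIS transcript of the control line. Matches are in capitals. The Meis2 window lies on the minus strand at chr2:116064570-116064869 and that of Meis3 on the plus strand at chr7:16175145-16175444.
Meis2: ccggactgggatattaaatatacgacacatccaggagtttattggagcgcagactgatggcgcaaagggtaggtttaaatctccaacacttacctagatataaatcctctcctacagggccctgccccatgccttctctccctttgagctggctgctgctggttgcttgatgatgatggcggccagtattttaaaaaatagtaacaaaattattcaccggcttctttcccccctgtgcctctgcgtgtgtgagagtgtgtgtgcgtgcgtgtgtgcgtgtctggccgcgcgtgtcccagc
Meis3: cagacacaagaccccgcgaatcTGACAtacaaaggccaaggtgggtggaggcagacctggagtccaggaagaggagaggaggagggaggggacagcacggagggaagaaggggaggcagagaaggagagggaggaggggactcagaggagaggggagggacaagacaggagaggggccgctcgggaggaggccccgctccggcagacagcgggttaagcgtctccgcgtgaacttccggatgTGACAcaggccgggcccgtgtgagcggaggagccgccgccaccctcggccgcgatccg
The Meis2 window held none of the 3 motifs, and neither did those of Meis1, Pbx2 and Tgif2. The Meis3 window held 2 matches to TGTCA, which 45.4% of all 32851 windows hold at least once. TGACAG is in 19.2% of all windows and TGATTNAT in 3.22%.

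PBX proteins are the DNA-binding partners of MEIS and PREP. Pbx2 had 37.8 and 30.0 CPM in the MEIS2 line, against 33.5 and 31.2 CPM in the control line. The lines overlapped, since MEIS2 replicate 1 was the highest of the 4 libraries and MEIS2 replicate 2 the lowest. The log2 fold change was 0.07 (SE 0.34, adjusted p 0.942 in edgeR's test), with a 95% interval from -0.66 to 0.80, and -0.13 without MEIS2 replicate 1.

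Pbx3 had the largest fold change among the 7 genes other than Meis2. It had 9.54 and 15.7 CPM in the MEIS2 line, against 6.51 and 7.69 CPM in the control line. Both MEIS2 libraries were higher, with MEIS2 replicate 2 well above the other 3 libraries. The log2 fold change was 0.83 (SE 0.42, adjusted p 0.527 in edgeR's test), with a 95% interval from -0.07 to 1.73. It was 0.39 (adjusted p 1.00) without MEIS2 replicate 2 and 1.13 (adjusted p 0.0206) without MEIS2 replicate 1, where 2411 genes passed. The GC content of Pbx3, 38.8%, is lower than that of nearly all tested genes, and after correction for length and GC the value was 0.44.

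Per length, the order within this pair was the same in both lines. Pbx3 stood at 0.150 and 0.313 of the level of Pbx2 in the MEIS2 libraries, against 0.116 and 0.147 in the controls. Pbx2 and Pbx3 together came to 11.4 ± 0.813 CPM per kb in the MEIS2 line and 10.0 ± 0.308 CPM per kb in the control line (SD, n = 2 each). The summed MEIS level was 2.96 and 3.1 times that of Pbx2 and Pbx3 in the MEIS2 libraries, against 0.997 and 1.02 times in the controls. The lines did not overlap in that ratio, which includes Meis2 (p = 0.333 in an exact two-sided permutation test, the smallest possible).

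Neither PREP gene passed the test. Pknox1, which encodes PREP1 and is needed for embryonic blood formation, had 24.6 and 27.3 CPM in the MEIS2 line, against 20.1 and 23.2 CPM in the control line. Pknox2, which encodes PREP2, had 16.8 and 17.8 CPM in the MEIS2 line, against 19.7 and 22.01 CPM in the control line. The MEIS2 libraries thus lay above the controls for Pknox1 and below them for Pknox2, by narrow gaps in both cases. The log2 fold changes were 0.26 for Pknox1 (SE 0.35) and -0.27 for Pknox2 (SE 0.36), and the adjusted p was 0.766 for each in edgeR's test. Their 95% intervals were -0.49 to 1.01 and -1.04 to 0.51.

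The ratio between the PREP genes did not overlap between the lines. The level of Pknox1 per length was 2.18 and 2.28 times that of Pknox2 in the MEIS2 libraries, against 1.52 and 1.57 times in the controls. The spread within a line was small beside that gap, and the exact two-sided permutation p was 0.333, the smallest possible. Taken singly, 41.6% of all tested genes did not overlap between the lines. The share among ratios of other gene pairs was not counted, and this ratio was not among the planned results. Their sum was 5.42 ± 0.335 CPM per kb in the MEIS2 line and 5.14 ± 0.480 CPM per kb in the control line (SD, n = 2 each), and there the lines overlapped. Corrected for length and GC, Pknox2 stood at -0.67 (SE 0.19) and Pknox1 at -0.06 (SE 0.18). In that fit edgeR's test gave Pknox2 an unadjusted p of 0.00893 and an adjusted p of 0.376. At an unadjusted p under 0.05, 685 of all 12802 tested genes were lower there. Pknox1 overlaps Gm50107, a row on the same strand, with 25 and 20 counts in the MEIS2 libraries, against 3 and 11 in the controls.

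The TGIF genes lie at opposite ends of the range of levels. Tgif1, a repressor that is mutated in human holoprosencephaly, had 71.2 and 55.98 CPM in the MEIS2 line, against 55.1 and 55.7 CPM in the control line. MEIS2 replicate 1 stood apart from the other 3 libraries, and MEIS2 replicate 2 was just above the controls. The log2 fold change was 0.20 (SE 0.32, adjusted p 0.797 in edgeR's test), with a 95% interval from -0.48 to 0.88, and 0.00068 without MEIS2 replicate 1. Tgif1 has 5 of the 10 promoter windows, and the 2 that hold TGACAG are shown because no other window of these genes holds it. Both lie on the minus strand of GRCm38.p6, the first at chr17:70851161-70851460 and the second at chr17:70846728-70847027, with matches to any of the 3 motifs in capitals.
Tgif1 first window: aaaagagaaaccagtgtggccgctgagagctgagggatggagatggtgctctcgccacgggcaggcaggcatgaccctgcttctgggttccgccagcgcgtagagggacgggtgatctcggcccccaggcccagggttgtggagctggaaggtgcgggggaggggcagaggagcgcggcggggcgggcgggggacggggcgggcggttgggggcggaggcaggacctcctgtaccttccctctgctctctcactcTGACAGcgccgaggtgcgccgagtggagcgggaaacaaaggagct
Tgif1 second window: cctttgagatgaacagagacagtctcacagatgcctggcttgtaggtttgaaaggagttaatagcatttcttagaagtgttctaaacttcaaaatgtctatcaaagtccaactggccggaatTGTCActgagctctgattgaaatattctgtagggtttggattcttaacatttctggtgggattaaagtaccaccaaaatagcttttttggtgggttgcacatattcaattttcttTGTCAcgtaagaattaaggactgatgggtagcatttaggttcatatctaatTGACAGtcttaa
Another window of Tgif1 held the only match to TGATTNAT. A match is a run of letters and no measure of binding.

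Tgif2, the close relative of Tgif1, was nearly silent. It had 6 and 5 counts in the MEIS2 libraries, against 0 and 1 in the controls, and did not pass the filter on low counts. A floor of 3 counts per library, worth 0.177 to 0.2 CPM before scaling, was passed by both MEIS2 libraries and by neither control. Per total count, the 11 counts of the MEIS2 line were 11.9 times the 1 count of the control line, with an exact 95% interval from 1.74 to 514 that covers counting error only. Without the filter, edgeR's test gave Tgif2 a log2 value of 3.12 (SE 1.91, adjusted p 0.668), which depends on how small counts are handled and is no bound. On the opposite strand lies the row 5430405H02Rik, with 46 and 36 counts in the MEIS2 libraries, against 26 and 31 in the controls. Of the distinct runs of 50 bases in the annotated Tgif2 transcripts, 67.5% also occur in transcripts of other genes, 5430405H02Rik sharing the most, and no source states whether counting used strand. The values of Tgif2 are therefore uncertain.

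**Figure D3:**
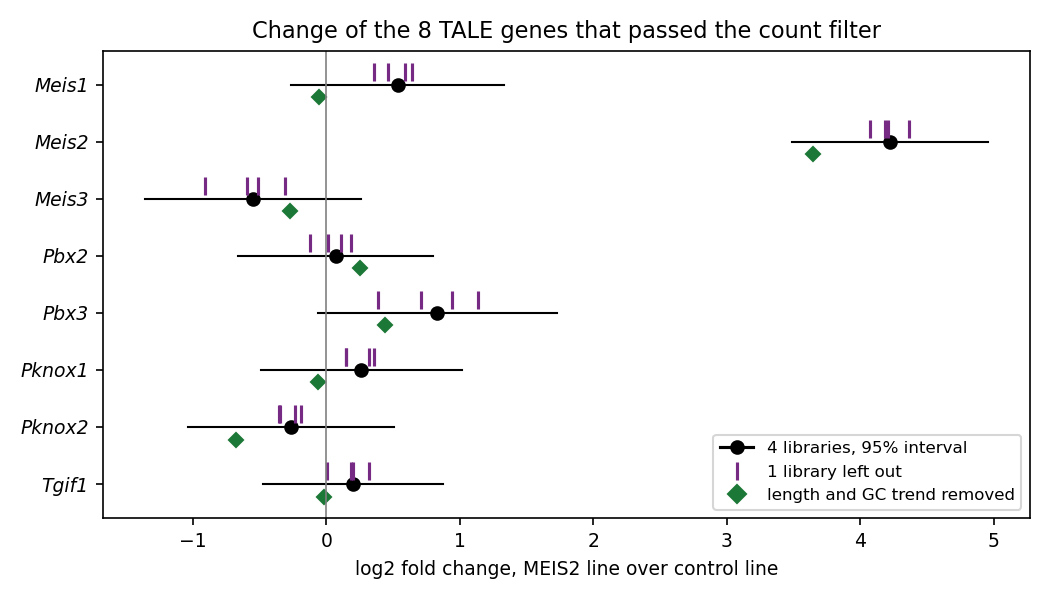
Log2 fold change of the 8 tested TALE genes (MEIS2 line over control line) with its 95% interval in edgeR's test (black), with 1 library left out in turn (purple marks) and corrected for length and GC (green diamonds). The interval of Meis2 runs from 3.49 to 4.95, and the other 7 intervals include 0.

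Ordered by level per length, the MEIS2 line had Meis2 (27.5 ± 0.00655 CPM per kb), Tgif1 (11.3 ± 1.91), Pbx2 (9.31 ± 1.53), Meis3 (5.06 ± 1.52), Pknox1 (3.74 ± 0.269), Pbx3 (2.07 ± 0.716), Meis1 (1.82 ± 0.231), Pknox2 (1.68 ± 0.0666) and Tgif2 (0.0890 ± 0.0159; SD, n = 2 each). Here the ranges over the libraries overlapped for Tgif1 and Pbx2, for Pbx3 and Meis1 and for Meis1 and Pknox2. Within each MEIS2 library, Tgif1 lay above Pbx2 and Meis1 above Pknox2. Pbx3 lay below Meis1 in MEIS2 replicate 1 and above it in MEIS2 replicate 2, so the order of Pbx3 and Meis1 is not fixed. The control line ran from Tgif1 (9.85 ± 0.0799 CPM per kb) through Pbx2 (8.88 ± 0.444), Meis3 (7.39 ± 0.284), Pknox1 (3.13 ± 0.319), Pknox2 (2.02 ± 0.161), Meis2 (1.48 ± 0.215), Meis1 (1.25 ± 0.0803) and Pbx3 (1.16 ± 0.136) to Tgif2 (0.00802 ± 0.0113; SD, n = 2 each). Among neighbours in that order only Meis1 and Pbx3 overlapped. Apart from Meis2, both lines had Tgif1, Pbx2, Meis3 and Pknox1 as the top 4 in the same order.

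Among the 52 tested rows that the file assigns to the homeobox family, Meis2 ranked 1 in the MEIS2 line and 27 in the control line by level per length. Tgif1 ranked 4 in both lines, Pbx2 ranked 7 in the MEIS2 line and 5 in the control line, and Meis3 ranked 10 and 6 in that order of lines. Among all 12802 tested genes, Meis2 lay above 83.7% in the MEIS2 line and above 25.8% in the control line. The other 44 tested homeobox rows had a median log2 fold change of 0.32, with 31 above 0 and 13 below, and 0 passed edgeR's test (0 by DESeq2 or limma-voom). At an unadjusted p under 0.05, 6 were higher and 0 lower, where 9.79% of all tested genes were higher. Their median was 0.08 without MEIS2 replicate 2, 0.20 without control replicate 1, 0.52 without control replicate 2 and 0.58 without MEIS2 replicate 1.

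Few sequence runs of Meis2 transcripts occur in other genes. Runs of 50 bases shared with another gene made up 0.19% of those in its annotated transcripts, and none was shared among the 9 TALE genes. For Meis3, Pbx3, Pknox2 and Tgif1 no such run was shared with any gene, and for Meis1 the share was 17.0%, with Gm37818 holding the most, a row within Meis1 that had at most 2 counts per library. No row of the table overlaps Meis2 (ENSMUSG00000027210, minus strand of chromosome 2, 115693545 to 115896320 in the file's own positions, for which no source names a build).

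The pattern of Meis2 over the 4 libraries was compared with that of 9502 tested genes at a mean of at least 5 CPM, by the Euclidean distance between log2 CPM deviations from each gene's mean. The TALE genes and, by symbol, unnamed gene models, Rik clones and pseudogenes were left out. Genes near Meis2 by this measure are picked for being higher in the MEIS2 line, so that direction is no separate result. The nearest was Sumo2, a small ubiquitin-like modifier with near-identical copies in the genome, at a distance of 1.77, where the median distance was 4.26. It had 22.8 and 49.5 CPM in the MEIS2 line, against 4.49 and 6.27 CPM in the control line. The next were Crebbp, a histone acetyltransferase (2.44), Kmt2a, a histone methyltransferase (2.49), Chd7, a chromatin remodeler (2.50), and Taf4, a subunit of the general factor TFIID (2.54). Crebbp, Kmt2a and Chd7 are long, with 13540, 16670 and 13786 bases, as is Meis2 with 12043. Sumo2 has 1736 bases and Taf4 has 4621. The distances were taken without removing the length trend, and its part in them was not tested. In all 5 genes MEIS2 replicate 2 was well above MEIS2 replicate 1, unlike in Meis2, where these libraries were level. None of the 5 passed edgeR's test (adjusted p 0.169 for Sumo2 and 0.256 for the other 4).

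The IRX and MKX genes also belong to the TALE class. Of 7 such genes 3 were tested and 0 passed in edgeR's test, DESeq2 or limma-voom, with 2 higher at an unadjusted p under 0.05 in edgeR's (9.79% of all tested genes), while Irx1, Irx4 and Irx6 had no count in any library. Irx2, a patterning factor, had 12.9 and 13.9 CPM in the MEIS2 line, against 6.12 and 6.58 CPM in the control line. The difference was 1.08 on the log2 scale (SE 0.40, adjusted p 0.335 in edgeR's test), and both MEIS2 libraries were about level and higher than both controls. Irx5, named after its values were seen, had 5.5 and 7.09 CPM in the MEIS2 line, against 2.02 and 2.46 CPM in the control line, or 1.49 on the log2 scale (SE 0.46, adjusted p 0.279). Corrected for length and GC, Irx2 stood at 1.36 and Irx5 at 1.71. Without MEIS2 replicate 1, Irx2 (1.12, adjusted p 0.0251) and Irx5 (1.65, adjusted p 0.00469) passed, as did 2411 genes in all. Mkx, a factor of tendon cells, had 4.67 and 11.7 CPM in the MEIS2 line, against 5.86 and 9.04 CPM in the control line, with overlap between the lines.

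HOX proteins are the classic partners of PBX and MEIS. Of 39 HOX genes 28 had no count in any library, 4 were tested and 0 passed in edgeR's test, at an unadjusted p under 0.05 or by DESeq2 or limma-voom. Hoxa5, a patterning factor of the HOX family, had 1.6 and 3.63 CPM in the MEIS2 line, against 1.69 and 2.21 CPM in the control line. All HOX genes together summed to 9.22 and 11.8 CPM in the MEIS2 line, against 6.97 and 6.27 CPM in the control line. The lines overlapped for Hoxa5.

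Genes that move PBX out of the nucleus or act in the turnover of MEIS were all expressed. All 7 were tested and 0 passed in edgeR's test, DESeq2 or limma-voom, their median log2 fold change being 0.59. Myh10 and Xpo1 were higher at an unadjusted p under 0.05 in edgeR's, 2 of 7 where 9.79% of all tested genes were. The median was 0.15 without MEIS2 replicate 2, 0.35 without control replicate 1 and 0.99 without MEIS2 replicate 1. Ddb1, an adaptor of the CUL4 ubiquitin ligase whose receptor cereblon is known to bind human MEIS2, had 2265 and 1457 CPM in the MEIS2 line, against 2889 and 2397 CPM in the control line (log2 fold change -0.51, SE 0.36, adjusted p 0.607 in edgeR's test). It was -0.88 without MEIS2 replicate 1 and -0.27 without MEIS2 replicate 2. Crbn, which encodes cereblon and was named for that role after its values were seen, had 13.2 and 19.3 CPM in the MEIS2 line, against 14.9 and 24.5 CPM in the control line, with overlap. Myh10, a non-muscle myosin that can hold PBX in the cytoplasm, had 155.6 and 286.1 CPM in the MEIS2 line, against 80.7 and 112.1 CPM in the control line. Its log2 value of 1.20 (SE 0.35, adjusted p 0.277 in edgeR's test) was 0.66 without MEIS2 replicate 2, 1.56 without MEIS2 replicate 1 (adjusted p 0.000663) and 0.70 when corrected for length and GC, and with no filter on low counts it passed (adjusted p 0.0391), as did 271 genes.

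Cofactors of TGIF were all expressed. All 11 were tested and 0 passed in edgeR's test, DESeq2 or limma-voom, their median log2 fold change being 0.42, with 9 above 0, as were 50.9% of all tested genes. At an unadjusted p under 0.05 in edgeR's, 2 were higher, as were 9.79% of all tested genes. The median was 0.20 with 6 above 0 without MEIS2 replicate 2, and 0.19 without control replicate 1. Ctbp1, a corepressor, had 304.7 and 261.7 CPM in the MEIS2 line, against 243.8 and 272.6 CPM in the control line, so the lines overlapped. Hdac1, a histone deacetylase, had 111.9 and 106.1 CPM in the MEIS2 line, against 121.9 and 137.2 CPM in the control line, or -0.25 on the log2 scale (SE 0.29, adjusted p 0.734 in edgeR's test) with both MEIS2 libraries lower.

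Genes described as MEIS targets in other tissues showed no common direction. Of 11 listed, 8 were tested, 6 had a log2 fold change above 0 and 2 below, with a median of 0.19, where 50.9% of all tested genes were above 0, and 0 passed in edgeR's test, at an unadjusted p under 0.05 or by DESeq2 or limma-voom. Without MEIS2 replicate 2 the median turned to -0.20 over 9 tested, with 4 above 0 and 5 below, and without control replicate 1 it was 0.0047, with 4 above and 4 below. It was 0.31 without control replicate 2. Cdkn2a, a cell cycle inhibitor, had 358.2 and 344.0 CPM in the MEIS2 line, against 457.8 and 463.8 CPM in the control line (log2 fold change -0.39, SE 0.30, adjusted p 0.62 in edgeR's test). Both MEIS2 libraries were lower, and after correction for length and GC the value was 0.09. Ccnd1, a cyclin of the G1 phase, had 262.3 and 303.5 CPM in the MEIS2 line, against 226.1 and 274.2 CPM in the control line, with overlap.

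**Figure D4:**
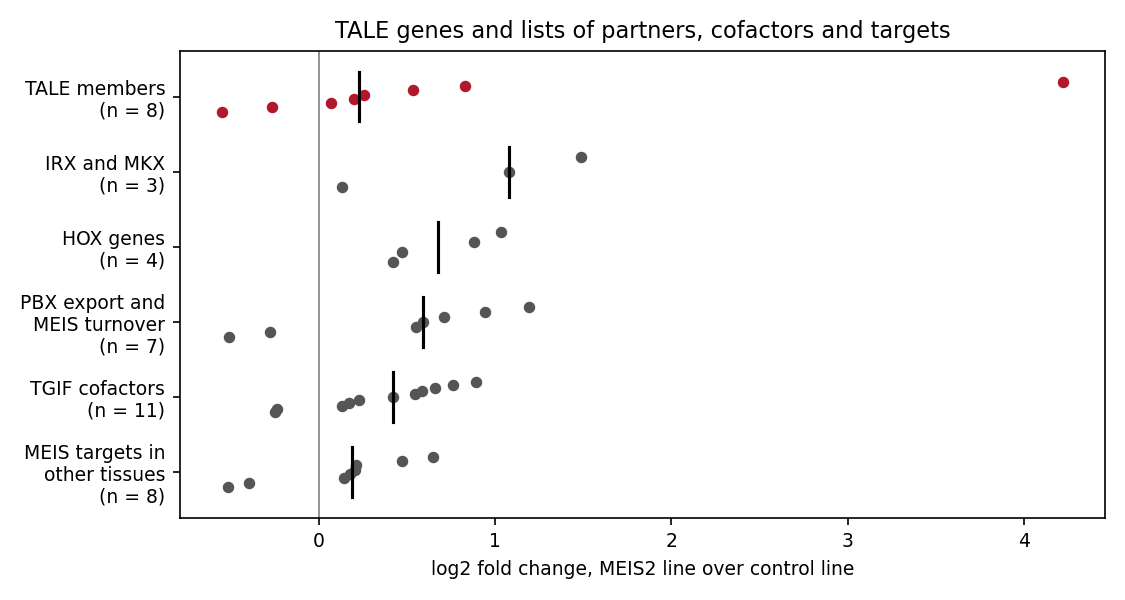
Log2 fold change (MEIS2 line over control line) of each tested gene, for the TALE genes (red) and 5 lists of related genes (grey), with the median of each as a black line. Meis2 at 4.22 stands alone, and the other 7 TALE genes lie between -0.55 and 0.83.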

How the data were processed

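Per the labels' protocols, poly(A)-tailed RNA was selected on oligo(dT) beads from total RNA and fragmented, followed by NEB library preparation. The authors deposited whole-number read counts per gene, with gene length, position and strand per the file headers. DESeq2 is named, without a version, per the submitters' processing notes; for the aligner, counting program, strand setting and build, the sources used here give nothing. The positions match GENCODE M21 (GRCm38) at both ends for 1472 of 52073 common IDs, and no build is named for them.

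Counts were tested in R 4.3.3 with edgeR 4.0.16 (filterByExpr, TMM, group term, quasi-likelihood F test), with Benjamini-Hochberg adjustment over 12802 genes and a threshold of 0.05. The SE is the log2 fold change over the square root of F, and 95% intervals use the fit's degrees of freedom. Poly(A) selection leaves little RNA without a tail, and coverage of long transcripts depends on intact RNA. Levels per kb divide TMM-scaled CPM by the length in the file. Chi-square over its degrees of freedom was 95.2 between the MEIS2 libraries and 36.3 between the controls, beyond sampling noise, and each library was counted as 1 replicate. GC content came from the longest M21 transcript (98.85% of tested genes), and the median was used for the rest. The trend was a spline fit per library on log length and GC. The code was checked on simulated counts with large changes and less spread than these libraries. That check does not measure the power or error of the test in these data.

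The members and lists were chosen with earlier results of these data known. Named are the 9 TALE genes, the 2 genes of each list with the highest mean CPM, list genes past the threshold, and the 5 genes nearest to Meis2; other genes named (Irx5, Crbn, Xpo1, Cdkn1a, the IRX genes without counts, the markers and the overlapping rows) were chosen after their values were seen. Some genes that fall under these rules are not reported here. Promoters are from RefSeq on GRCm38.p6. The alternatives were DESeq2 size factors, library size alone, upper quartile scaling, no filter, 5 CPM in 2 libraries, DESeq2 1.42.0, limma-voom (limma 3.58.1), the replicate block, each library left out, and the length or length and GC trend removed.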

Additional observations from a re-analysis of the deposited data

How the results depend on the processing

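Meis2 kept its direction under all 14 alternatives (log2 fold change 3.65 to 4.37) and its call under 13; corrected for length and GC it stood at 3.65 (adjusted p 0.0975), and then 0 genes and 0 TALE genes passed in edgeR's test, with 971 genes higher and 685 lower at an unadjusted p under 0.05. The 4 fits without a library gave Meis2 4.07 to 4.37. The count of genes called, 1 with all 4 libraries, was 271 with no filter on low counts (among them Myh10 and 1 other homeobox row), 62 with DESeq2, and 1 to 2411 with a library left out (2411 without MEIS2 replicate 1, 4 without MEIS2 replicate 2). Leaving out a library assumes that the lone library of a line varies like the other line. The count of TALE genes called was 1 to 2 with a library left out, with Pbx3 as the addition without MEIS2 replicate 1. Without that library the median log2 fold change was 1.12 for IRX and MKX genes and 0.99 for PBX export and MEIS turnover. It was 0.61 for TGIF cofactors and 0.58 for other homeobox rows, against 0.04 over all tested genes. The count of TALE genes with a positive fold change was 5 to 6 with a library left out and 3 when corrected for length and GC. Directions turned for Meis1 (-0.010 with the length trend removed and -0.052 when corrected for length and GC), Pknox1 (-0.020 and -0.060), Tgif1 (-0.016 when corrected for length and GC) and Pbx2 (-0.13 without MEIS2 replicate 1); those of Pbx2 with a library left out ran from -0.13 to 0.18. The cause was not tested. Library size alone moved the median of all genes to 0.17. The share of Meis2 and the level of Meis1 and Meis3 kept their direction in 6 of 6 alternatives each. The log2 ratio of that level shrank from -0.33 to -0.06 as CPM not divided by length, where the lines overlapped. Removal of the length or GC trend was not run for the share or the level.

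The replicate numbers are not given as a pairing by the labels. Over genes, which are not independent replicates, the deviations of same-numbered libraries had a correlation of 0.529. With the replicate block, on 1 residual degree of freedom, 2797 genes passed (1884 higher and 913 lower), and 2 TALE genes, Meis2 and Pbx3 (0.80, adjusted p 0.0242). In that fit 1884 of all 12802 tested genes passed as higher and 913 as lower. Of the lists, 2 of 3 IRX and MKX genes and 3 of 11 TGIF cofactors passed as higher. So did 3 of 7 genes of PBX export and MEIS turnover (Myh10 with an adjusted p of 3.49e-07) and 8 of 44 other homeobox rows. As lower, 1 of the 44 other homeobox rows and 1 of 8 MEIS targets, Cdkn1a (adjusted p 0.038), passed. Crossed pairings were not run. With 2 libraries a line, the 95% intervals of the 7 other tested TALE genes included 0.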
